A study of Schizosaccharomyces pombe
Saccharomyces cerevisiae with 8 samples.

Results

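The genes described here are the sporulation and spore wall genes of budding yeast, Saccharomyces cerevisiae. They are the genes whose deposited GO process terms mention ascospores or sporulation, without protein kinases, sequence-specific DNA-binding proteins and proteins of the fungal-type cell wall, and without 2 further genes. The rule, which used annotation and no measured value, found 153 of the 6518 features of the total RNA table and 57 of the 2822 features of the newly synthesized RNA table.

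All cells came from 1 strain of mating type alpha that carried degron tags (IAA7, beside HA or V5 epitopes) on Med14 and Med17, subunits at the core of the Mediator coactivator of RNA polymerase II. The rice auxin receptor OsTIR1, expressed from the GPD1 promoter, directs the breakdown of both tagged proteins once auxin is present. The same tags, receptor and auxotrophic alleles (ura3Δ0, trp1Δ63, met15Δ0, lys2Δ0, leu2Δ0, his3Δ200 and ade2Δ::hisG) were present in the control cells. Cultures in rich medium received auxin (500 µM 3-indole acetic acid) or the solvent DMSO for 30 min, and 4-thiouracil (5 mM) for the 6 min that followed. RNA-seq was done on total RNA (2 auxin and 2 DMSO libraries) and on purified 4-thiouracil-labelled, newly synthesized RNA (2 auxin and 2 DMSO libraries). The series asks whether structural Mediator subunits are needed for transcription across the genome, and auxin against DMSO addresses that question in each fraction.

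Sporulation is the program by which starved diploid yeast goes through meiosis and packs each of the resulting nuclei into a spore. The meiotic outer plaque of the spindle pole body starts a new double membrane, the prospore membrane, which a leading edge complex and septins shape around the nucleus. The spore wall is then laid down inside it, with mannan and beta-glucan layers below and chitosan and dityrosine layers outside. Haploid alpha cells on rich medium do not sporulate, and many of these genes are kept off there by repressors such as Ume6 and Sum1. Other genes with a sporulation term also serve growing cells, among them actin, histones and vesicle transport proteins.

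Total RNA counts summed to 10862028 and 13970025 in auxin libraries and to 17491251 and 13004246 in DMSO libraries. Levels are given as normalized counts, which are the counts divided by the authors' size factor of each library, or as normalized counts per kb of coding length. The 2 features of the degraded proteins (RGR1 for Med14, SRB4 for Med17) stood lower in auxin by log2 fold changes of -1.27 and -1.90, and since the degron acts on the protein these RNA levels do not check its loss. Markers of alpha cells were well expressed: STE3, the receptor for the other mating type, had 541 and 674 normalized counts in auxin against 4036 and 4868 in DMSO. Of the markers of the other mating type, BAR1 had 9.50 and 16.8 normalized counts in auxin against 20.1 and 26.1 in DMSO, and AGA2 had 1 and 0 counts in auxin against 1 and 0 in DMSO.

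Most sporulation genes fell with the rest of the genome. Of the 153 genes, 130 had enough counts to be tested in total RNA (a mean of at least 10 over the 4 libraries). By edgeR's quasi-likelihood test with Benjamini-Hochberg adjustment over all tested features, called at an adjusted p below 0.05, 119 were lower, 4 were higher and 7 were not called. Among all 5589 tested features, 92.3% were called lower and 0.769% higher. The median log2 fold change, auxin over DMSO, was -1.87 over the tested sporulation genes and -1.85 over all tested features. Set against the mean of the DMSO libraries, the median sporulation gene stood at 26.4% and 29.5% in the auxin libraries and at 96.4% and 104% in the DMSO libraries. These values rest on the authors' size factors. Under TMM scaling, which assumes that most features do not change, all log2 fold changes shift up by about 1.76, 40 sporulation genes are called higher and 47 lower, and all features give 29.6% higher and 32.3% lower.

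To ask which silent genes rise, a gene was called silent if its mean over the 4 total RNA libraries lay among the lowest 25% of protein-coding features, at or under 97.2 normalized counts per kb. This held for 64 sporulation genes. The values nearest to the limit were 85.2 for YGR056W and 85.9 for MRE11 inside it, and 98.6 for YER132C and 110 for IRC19 outside it. Of the 41 silent genes with enough counts, 3 were called higher, 32 lower and 6 not called, with a median log2 fold change of -1.54. Of these 3, YDR218C and DIT2 averaged under 10 counts in DMSO and passed the count limit only through the auxin libraries, where they are high. Among the 788 tested silent protein-coding features, 2.16% were called higher and 89.7% lower, with a median of -2.12. Of the 17 features called higher there, 11 had likewise passed only through the auxin libraries. Of the 89 sporulation genes that were not silent, 1 was called higher, 87 lower and 1 not called, with a median of -1.99. The one not called was YDL070W, a gene of transcription initiation at TATA promoters, with a log2 fold change of -0.20 (SE 0.19). Among protein-coding features that were not silent, 0.404% were called higher and 93.2% lower. With silence set by the DMSO libraries alone, 65 sporulation genes were silent, 42 of them were tested and 4 were called higher. Of the 788 features that pass the same limits, 2.79% were called higher. This split favours genes that rise, as the same DMSO values enter the fold change. The 4 genes include YDR218C and DIT2.

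**Figure D1:**
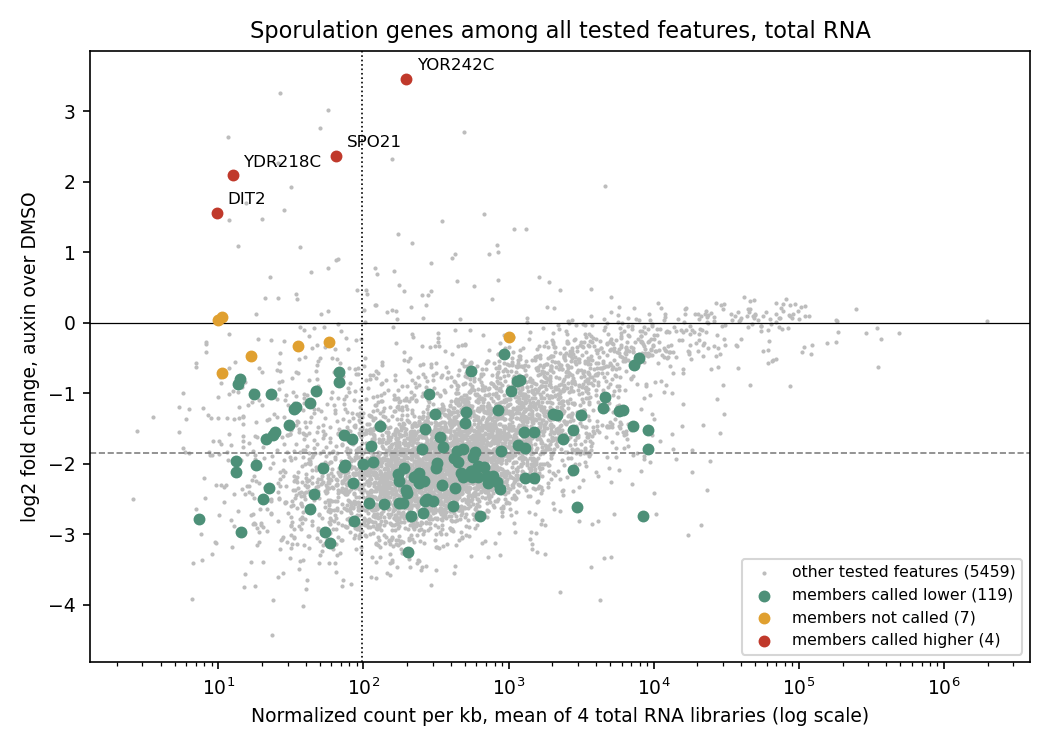
Each point is 1 tested feature of total RNA, with its mean normalized count per kb on a log scale along the x axis and its log2 fold change, auxin over DMSO, along the y axis. The 4 sporulation genes called higher stand above 0 at the top left, the 119 called lower lie within the cloud of other features, the dotted line marks the silent limit (97.2) and the dashed line the median of all tested features (-1.85).

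YOR242C had the largest log2 fold change of the 43 features called higher in the whole table. Its product localizes to the spore wall, is needed after the second meiotic division, and is normally switched on by the meiotic activator Ndt80, per its deposited description. It had 384 and 422 normalized counts in auxin libraries, against 33.8 and 39.8 in DMSO libraries. The groups were far apart, with means of 403 ± 27.0 in auxin and 36.8 ± 4.24 in DMSO (SD, n = 2 each). The log2 fold change was 3.46 (SE 0.25, adjusted p 1.01e-40 by edgeR's quasi-likelihood test). The gene lies on the minus strand of chromosome XV from 788742 to 789857 (sacCer3, the build in the submitters' processing notes). Its rise carried its 4-library mean past the silent limit, so it counted as not silent there and as silent by the DMSO libraries alone.

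SPO21, which encodes a component of the meiotic outer plaque that is needed before the prospore membrane forms, was the next sporulation gene. It lies on the plus strand of chromosome XV from 145334 to 147163. SPO21 had 182 and 217 normalized counts in auxin libraries, against 32.0 and 46.7 in DMSO libraries. Both auxin values lay above both DMSO values, and the log2 fold change was 2.37 (SE 0.27, adjusted p 1.15e-18 by edgeR's quasi-likelihood test). The deposited description notes a paralog of SPO21, the prospore membrane gene YBR148W.

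YDR218C encodes a sporulation-specific septin, one of the filament-forming proteins that line the prospore membrane. It lies on the minus strand of chromosome IV from 903781 to 905052. It had 20.0 and 31.9 normalized counts in auxin libraries, against 6.40 and 5.49 in DMSO libraries, from 21 and 38 raw counts in auxin and 7 and 4 in DMSO. The groups did not overlap, although the auxin libraries differed by more than the DMSO libraries did. The log2 fold change was 2.09 (SE 0.49, adjusted p 2.77e-05 by edgeR's quasi-likelihood test), in a gene that entered the test only through its auxin counts.

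DIT2 encodes the cytochrome P450 enzyme that oxidizes N-formyltyrosine for the dityrosine layer of the spore wall. It lies on the minus strand of chromosome IV from 1272234 to 1273703. It had 21.9 and 21.0 normalized counts in auxin libraries, against 6.40 and 8.24 in DMSO libraries, from 23 and 25 raw counts in auxin and 7 and 6 in DMSO. The groups did not overlap, and the log2 fold change was 1.56 (SE 0.50, adjusted p 1.84e-03 by edgeR's quasi-likelihood test). DIT2 too entered the test only through its auxin counts. The call was lost with DESeq2 under the same size factors (adjusted p 0.062) and without DMSO replicate 1 (log2 fold change 1.36, adjusted p 0.057 by edgeR's quasi-likelihood test). Its reading frame overlaps YDR401W, a dubious frame on the other strand that was called lower (log2 fold change -1.41), and reads of the 2 frames cannot be told apart unless the counting used strand.

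In bulk RNA, a low level in every cell and a higher level in a few cells cannot be told apart. None of the 4 genes is among the features of the newly synthesized RNA table analysed here, which lists only features that fell, so whether their labelled RNA changed was not analysed.

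Neighbouring genes on the same strand were measured for each of the 4. The upstream neighbour was the nearest feature on the same strand that ends before the gene starts, with the strand taken from the letter W or C in the systematic name. For YOR242C it was YOR243C, a pseudouridine synthase gene whose frame ends 353 bases before YOR242C starts. YOR243C had 842 and 976 normalized counts per kb in auxin against 2119 and 2341 in DMSO, a log2 fold change of -1.29. The level of YOR242C per kb was 40.9% and 38.8% of that of YOR243C in auxin libraries, against 1.43% and 1.52% in DMSO libraries. On the other strand, MET7, a gene of folate metabolism, ends 100 bases past the end of YOR242C and was lower (log2 fold change -1.62).

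The upstream gene of SPO21 was read in the same direction. YOL092W, which encodes a putative vacuolar amino acid transporter, ends 203 bases before SPO21 and had 467 and 641 normalized counts per kb in auxin against 1073 and 1199 in DMSO (log2 fold change -1.03). SPO21 per kb was 21.3% and 18.5% of YOL092W in auxin libraries, against 1.63% and 2.13% in DMSO libraries.

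For YDR218C the upstream gene was YDR219C, an F-box protein gene 402 bases away with 126 and 157 normalized counts per kb in auxin against 596 and 663 in DMSO (log2 fold change -2.15). YDR218C per kb was 12.5% and 16.0% of YDR219C in auxin libraries, against 0.844% and 0.651% in DMSO libraries. The next gene downstream, the DNA damage checkpoint gene YDR217C, starts 300 bases on and was lower (log2 fold change -1.56).

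DIT2 had no such neighbour. Its nearest upstream feature on the same strand, the RNA polymerase II subunit gene RPB7, lies 2950 bases away (log2 fold change -1.82). Between them lies YDR403W, the other enzyme gene of dityrosine synthesis, which is read away from DIT2 and starts 898 bases from it. YDR403W had 22.8 and 26.9 normalized counts in auxin against 53.0 and 46.7 in DMSO and was called lower (log2 fold change -1.01). The 2 dityrosine genes that share this interval were thus called in opposite directions under the authors' size factors. The upward shift under TMM scaling, about 1.76, is larger than the fall of YDR403W.

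**Figure D2:**
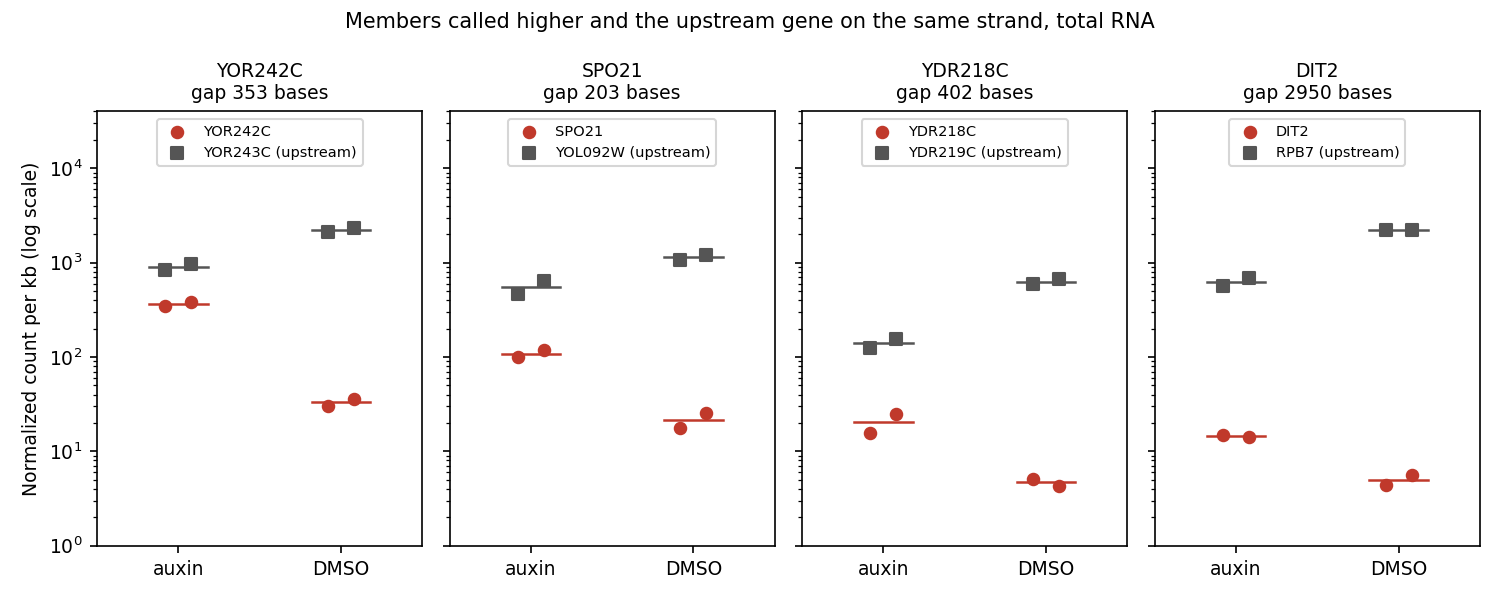
Normalized counts per kb in each total RNA library are drawn on a log scale for the 4 genes called higher (circles) and for the nearest upstream gene on the same strand (squares), auxin left and DMSO right, with bars at the group means. Each upstream gene is lower in auxin while the sporulation gene is higher, and the gap between the 2 frames runs from 203 bases at SPO21 to 2950 at DIT2.

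**Figure D3:**
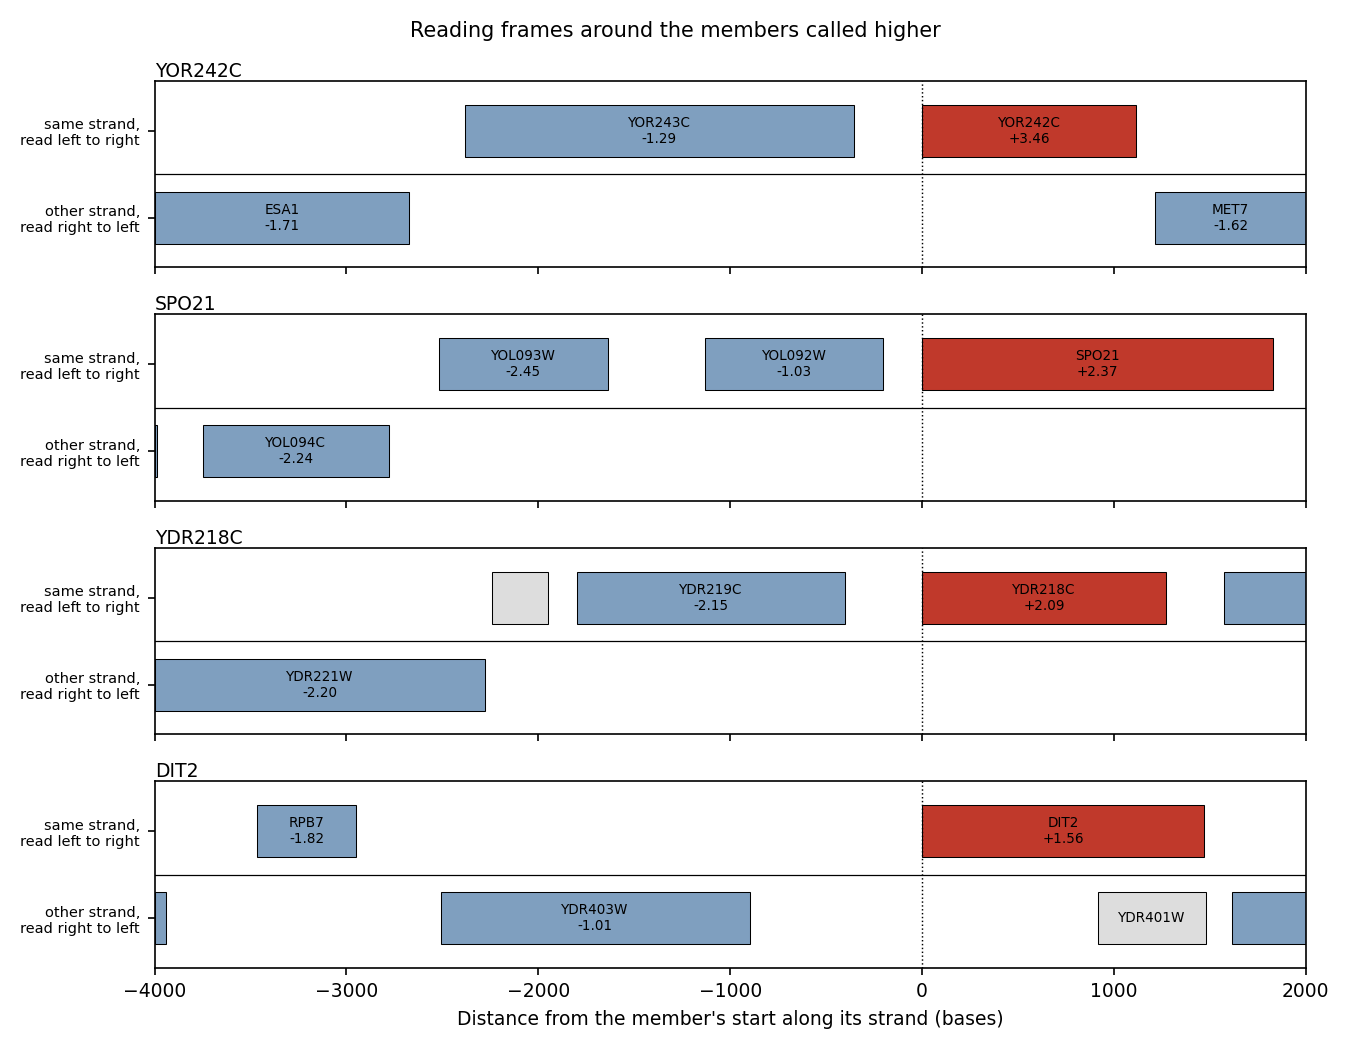
Reading frames from 4000 bases before to 2000 bases after the start of each gene called higher are drawn to scale along its strand, the gene itself in red, other features in blue and dubious frames in grey, with log2 fold changes (auxin over DMSO, total RNA) inside. YOR242C, SPO21 and YDR218C each follow a close gene on the same strand, and DIT2 does not.

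The same arrangement was counted over all sporulation genes: an upstream gene on the same strand within 500 bases that had at least 10 times the level per kb in DMSO libraries. This version of the rule was chosen after the data were seen. It favours genes that rise, as the DMSO values that select the genes also enter the fold change. It held for 15 sporulation genes, 11 of them tested, of which 3 were called higher (YOR242C, SPO21 and YDR218C), 5 lower and 3 not called. Of the 119 tested sporulation genes without it, 1 was called higher (DIT2), 114 lower and 4 not called. Among all tested protein-coding features, 4.92% of the 183 with such a neighbour and 0.509% of the 5307 without were called higher. With an upstream gene within 500 bases at any level, 0.498% of 1806 were called higher, beside 0.656% of all 5490. Over all protein-coding features, the contrast is thus not seen without the limit on DMSO levels. Of the 49 tested sporulation genes with an upstream gene within 500 bases at any level, 3 were called higher. Among the silent sporulation genes, 2 of the 10 tested with such a neighbour and 1 of the 31 without were called higher, against 6.33% of the 79 and 1.69% of the 709 among all tested silent protein-coding features. The rule as planned set the 10 times limit on auxin libraries instead. With it, 7 sporulation genes qualified, of which 5 were tested, 3 called lower and 2 not called. Of the 247 tested protein-coding features that qualified, 4 were called higher (1.62%), 230 lower and 13 not called. Of the 5243 that did not qualify, 0.610% were called higher. In that version a gene that rose is itself less likely to qualify.

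A neighbour of this kind did not always go with a rise. SSP1, which encodes a leading edge component of the prospore membrane, follows YHR183W at 314 bases, and YHR183W had 9392 and 10304 normalized counts per kb in auxin against 13112 and 14414 in DMSO. SSP1 fell, with 14.3 and 34.4 normalized counts in auxin against 137 and 129 in DMSO (log2 fold change -2.42), and stood at 0.0885% and 0.195% of YHR183W in auxin libraries and at 0.610% and 0.522% in DMSO libraries. DMC1, the meiosis-specific recombinase gene, follows YER178W at 341 bases and was not called, with 25.7 and 36.9 normalized counts in auxin against 33.8 and 46.7 in DMSO. YGR059W, the other sporulation-specific septin gene, follows YGR058W at 419 bases and was not called either, with 16.2 and 15.1 normalized counts in auxin against 17.4 and 12.4 in DMSO. As YGR058W fell (log2 fold change -2.14), YGR059W per kb was 48.4% and 33.7% of it in auxin libraries, against 9.72% and 7.37% in DMSO libraries. YDR273W, which encodes a leading edge protein, follows YDR272W at 341 bases and had 48.5 and 67.1 normalized counts in auxin against 67.7 and 72.8 in DMSO, without a call.

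Of the 11 tested genes with such a neighbour, 10 had a higher log2 fold change than the neighbour, SSP1 being the exception. The difference had a median of 1.61 and ran from -1.94 to 4.76. YOR242C, which gave the highest difference, was not silent by the 4-library mean. Of the 10 tested silent sporulation genes with such a neighbour, 9 had a difference above 0. Among tested silent protein-coding features outside the sporulation genes with such a neighbour, the difference was above 0 for 32 of 69, with a median of -0.28. Choosing pairs by a low share in DMSO itself favours a higher share in auxin, and no test was made. Reads that cross from one gene into the next were not analysed here, since the tables hold 1 count per feature.

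**Figure D4:**
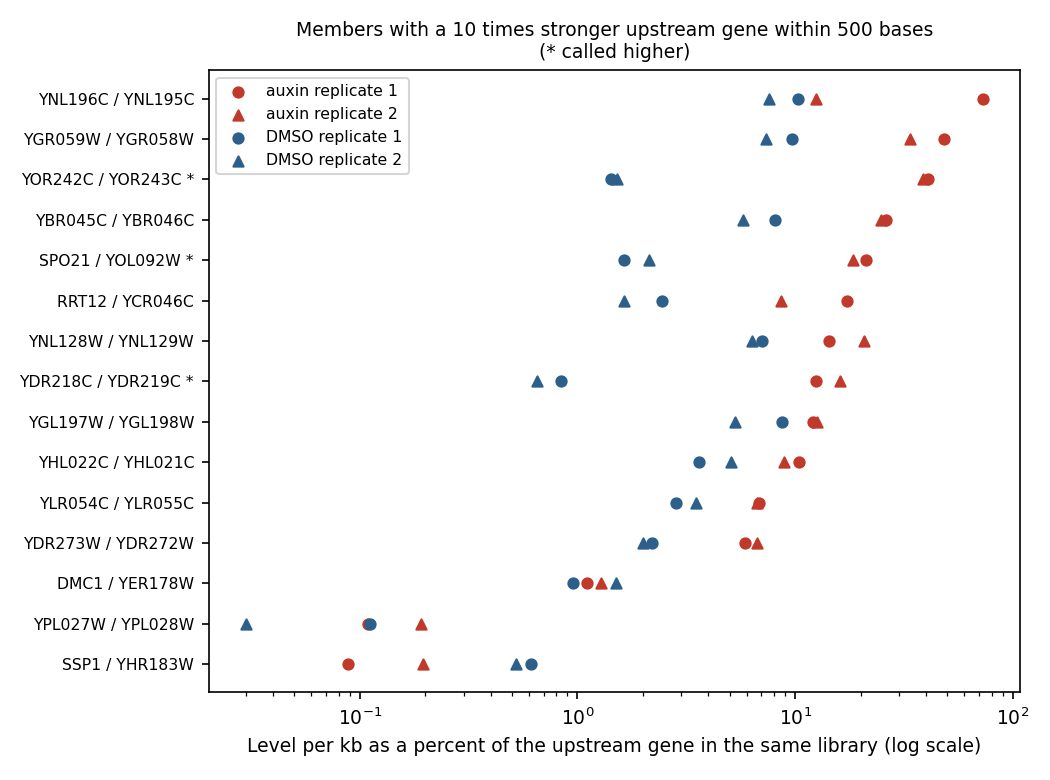
The level per kb of each of the 15 sporulation genes with an upstream gene of 10 times its DMSO level within 500 bases is drawn as a percent of that gene in the same library, on a log scale, with auxin in red and DMSO in blue. The genes called higher carry a star; YOR242C moves to 40.9% and 38.8% in auxin, against 1.43% and 1.52% in DMSO, and SSP1 at the bottom moves the other way.

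Most spore wall genes fell, as did 92.3% of all tested features, and 2 of the 4 genes that rose were among them. Of the 43 genes with ascospore wall assembly among their process terms, 30 were tested, of which 2 were higher (YOR242C and DIT2), 27 lower and 1 not called, with a median log2 fold change of -1.45. YER096W, the sporulation-specific activator of chitin synthase III for the chitosan layer, had 47.5 and 50.4 normalized counts in auxin against 94.2 and 98.9 in DMSO and fell (log2 fold change -0.97). The synthase itself, CHS3, is also used by growing cells and fell to 862 and 1133 normalized counts in auxin, against 4500 and 5078 in DMSO (log2 fold change -2.26). YLR307W, a chitin deacetylase gene for chitosan, had 3.80 and 5.04 normalized counts in auxin against 21.0 and 17.9 in DMSO (log2 fold change -2.11). YMR306W, which resembles beta-glucan synthases, fell with log2 fold change -1.44, and YLR213C, a putative glycoside hydrolase of the spore wall, with -1.22. The dityrosine transporter gene YBR180W and the outer wall genes LOH1 and YJL037W had too few counts to be tested, with at most 8.24 normalized counts in any library.

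Most prospore membrane genes fell, as did 92.3% of all tested features. Of the 20 genes with prospore terms, 17 were tested, of which 1 was higher (SPO21), 15 lower and 1 not called, with a median log2 fold change of -1.98. The outer plaque gene YOR177C, unlike SPO21, fell to 1.90 and 6.71 normalized counts in auxin, against 36.6 and 34.3 in DMSO (log2 fold change -2.97). YGL170C, another outer plaque gene, had 4.75 and 10.9 normalized counts in auxin against 5.49 and 5.49 in DMSO and was not tested. SPO20, the meiosis-specific t-SNARE that fuses vesicles to the prospore membrane, had 11.4 and 14.3 normalized counts in auxin against 11.0 and 13.7 in DMSO, so that the groups overlapped (log2 fold change 0.09, SE 0.49). YBR045C, the meiosis-specific subunit of the Glc7 phosphatase, had 88.4 and 112 normalized counts in auxin against 187 and 135 in DMSO (log2 fold change -0.69). Its partner YBR148W, the paralog of SPO21, had 23.8 and 22.7 normalized counts in auxin against 74.1 and 60.4 in DMSO (log2 fold change -1.54). VPS13, a lipid transfer protein gene of growing and sporulating cells, fell by less than most (log2 fold change -0.81).

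Description as meiosis- or sporulation-specific set off a further group. The deposited descriptions of 29 sporulation genes use such words, and 25 of these were silent. Of the 22 tested, 3 were higher (YOR242C, YDR218C and DIT2), 14 lower and 5 not called, with a median log2 fold change of -1.28. YDR218C and DIT2 entered the test only through their auxin counts. Of the 108 others tested, 1 was higher, 105 lower and 2 not called, with a median of -1.91. All tested features gave 0.769% higher and 92.3% lower. Of the 22 genes, 18 were silent, and all tested silent protein-coding features gave 2.16% higher and 89.7% lower. The 5 not called were SPO20, YGR059W, YDR273W, DMC1 and YIL099W, a glucoamylase gene of glycogen breakdown (log2 fold change -0.71). The remaining silent gene without a call was YOR313C, which is induced during sporulation but not needed for it (log2 fold change -0.47). The deepest fall among them was that of YHR153C, a gene of synaptonemal complex assembly, with 3.80 and 10.1 normalized counts in auxin against 58.5 and 68.7 in DMSO (log2 fold change -3.13). For comparison, 165 genes had meiosis terms but no sporulation term, and of the 154 tested, 150 were lower and 4 were not called, with a median of -2.13. Of the 30 silent ones among these that were tested, 29 were lower, with a median of -2.51. Groups chosen by annotation from 1 table were not tested against each other.

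Of the 19 genes that the rule leaves out, 15 were tested, of which 2 were called higher, 11 lower and 2 not called. Among all tested features, 0.769% were called higher and 92.3% lower. Both left-out genes called higher have roles in spore formation. YLR343W, a beta-glucanosyltransferase gene of spore wall assembly, had 365 and 514 normalized counts in auxin against 90.5 and 85.2 in DMSO (log2 fold change 2.32), with YLR342W-A, at over 10 times its level in DMSO, 110 bases upstream. YDR523C, a kinase gene for prospore membrane closure, had 77.9 and 71.3 normalized counts in auxin against 21.9 and 16.5 in DMSO (log2 fold change 1.92), with YDR524C 503 bases upstream, outside the 500-base limit. The sporulation gene YDR522C lies 262 bases downstream of YDR523C on the same strand, and had 2.85 and 1.68 normalized counts in auxin against 3.66 and 2.75 in DMSO.

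The 23 sporulation genes below the count limit were all silent. Their raw counts summed to 48 and 75 in auxin libraries and to 118 and 74 in DMSO libraries, or 45.6 and 62.9 normalized counts in auxin against 108 and 102 in DMSO. Of these 23, 7 had a higher normalized mean in auxin. YAL018C, a spore wall assembly gene, had 3 and 3 counts in auxin and 0 and 0 in DMSO, which is no more than the limit of 3 counts per library that a count of 0 allows, so no fold is given.

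Among genes that serve growing cells as well, falls ranged from that of SWM1 to that of BMH2. SWM1, a subunit of the anaphase-promoting complex that is also needed for spore wall assembly, fell to 20.9 and 18.5 normalized counts in auxin, against 165 and 213 in DMSO (log2 fold change -3.25, SE 0.29, adjusted p 5.06e-28 by edgeR's quasi-likelihood test). MRE11, the nuclease of double-strand break repair, had 36.1 and 52.0 normalized counts in auxin against 329 and 297 in DMSO (log2 fold change -2.82). Other low values among genes with a mean of at least 10 CPM were those of UBX6, which encodes a cofactor of the Cdc48 ATPase (-2.75), of YOL019W, of unknown function (-2.74), and of YNL225C, an outer plaque gene of the mitotic spindle pole body (-2.70). At the other end, BMH2, a phosphoserine-binding adaptor gene, had 496 and 803 normalized counts in auxin against 847 and 922 in DMSO (log2 fold change -0.44). CPR1, cyclophilin, had 2858 and 3594 normalized counts in auxin against 4259 and 4860 in DMSO (log2 fold change -0.50, a call that was lost without auxin replicate 1 or either DMSO replicate), and ACT1, actin, had 5416 and 7638 in auxin against 10534 and 9216 in DMSO (log2 fold change -0.60). The groups did not overlap for any of these 3 genes, but under TMM scaling their log2 fold changes turn to 1.31, 1.26 and 1.15, and the 7 genes not called become higher.

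The histone genes with a sporulation term were all lower, as were 92.3% of all tested features. Under TMM scaling YNL031C and YNL030W were still called lower, HHT1 was called higher (0.31) and YBR009C was not called. The H3 gene YNL031C and the H4 gene YNL030W, a divergent pair, had log2 fold changes of -2.61 and -2.74, and the other pair, HHT1 for H3 and YBR009C for H4, of -1.46 and -1.79. Both copies of each histone encode the same protein and can share reads, so their separate values are uncertain. BMH1, the more abundant paralog of BMH2, had a log2 fold change of -1.52 and the same uncertainty.

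In newly synthesized RNA, the 57 listed sporulation genes were all called lower, as were 100% of the 2822 listed features. The table holds only features that the authors scored as strongly lower, none with a log2 fold change above -2.20 in the authors' deposited table, so the direction is set by that selection and these values are a description. Over the listed features alone, counts summed to 4817883 and 5882137 in auxin libraries and to 13125438 and 15744423 in DMSO libraries. The median log2 fold change of the 57 genes was -2.82, with a range from -3.59 to -2.24, which leaves a median of 14.1% of the DMSO mean. The same genes had a median of -2.17 in total RNA. The 2 fractions were normalized separately, so the values stand side by side without a test. All 57 had a more negative value in newly synthesized than in total RNA, as had 98.05% of the 2821 features of both tables. Listing only features that were strongly lower in newly synthesized RNA itself favours this order.

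The distance between the fractions differed from gene to gene. SWM1 had 49.1 and 70.3 normalized counts of newly synthesized RNA in auxin against 648 and 793 in DMSO, a log2 fold change of -3.59, near its -3.25 in total RNA. ACT1 had 2683 and 3092 in auxin against 22655 and 24444 in DMSO, a log2 fold change of -3.03 in newly synthesized RNA beside -0.60 in total RNA. CPR1 gave -2.88 beside -0.50, BMH2 -2.64 beside -0.44, and BMH1 -3.32 beside -1.52. Other deep falls in newly synthesized RNA were those of YNL031C (-3.54), YNL030W (-3.42), YLR263W, a structural gene of meiotic chromosome axes (-3.42), and YDR512C, which is needed to induce an early meiotic regulator (-3.42). Of the 64 silent sporulation genes, 5 were listed (YLR263W, MRE11, YGR056W, YOR208W and YPR036W-A), or 7.81%, against 14.6% of all silent protein-coding features.

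**Figure D5:**
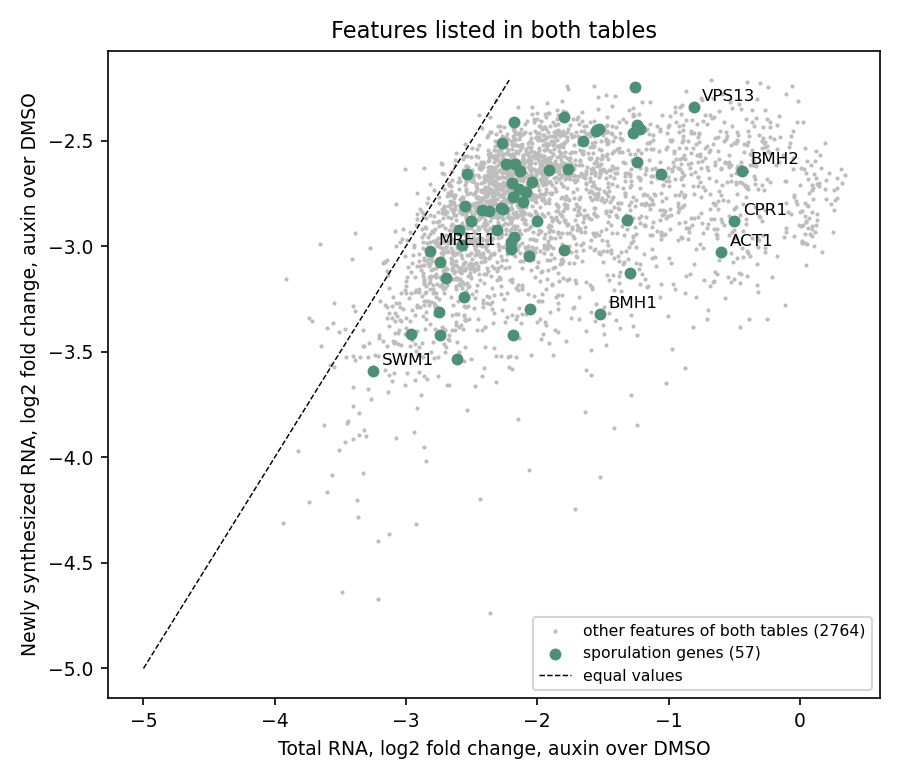
Each point is 1 feature of both tables, with its log2 fold change (auxin over DMSO) in total RNA along the x axis and in newly synthesized RNA along the y axis, and the dashed line marks equal values. The 57 sporulation genes (green) all lie below the line, ACT1, CPR1 and BMH2 farthest to the right and SWM1 closest to the lower left.

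The named regulators of the program were lower, as were 92.3% of all tested features. Of 11 meiotic regulators, 6 were matched by name, and the 5 tested were all lower, from RIM101, which encodes a repressor in the pH response (-1.82), to RME1, which encodes a repressor of meiotic entry (-2.20). Of 8 genes of repressors of meiotic genes, 4 were matched and all 4 were lower. UME6, which encodes the DNA-binding repressor of early meiotic genes, had 21.9 and 21.0 normalized counts in auxin against 155 and 172 in DMSO (log2 fold change -2.92). UME1, a subunit of the histone deacetylase complex that Ume6 recruits, had a log2 fold change of -3.01, RPD3, its deacetylase, of -2.00, and SIN3, its scaffold, of -0.99. Of 25 meiotic recombination genes, 6 were matched and 5 tested, of which 4 were lower and DMC1 was not called, the lowest being NDJ1, a telomere protein of meiosis (-2.92). Of 29 spore wall genes, 5 were matched, with DIT2 higher, 3 lower and 1 not called (SPR1, an exo-glucanase gene, 0.35). Of 24 prospore membrane and spindle pole genes, 5 were matched, with SPO21 higher, 3 lower and 1 not called (SPO20). Most genes of these lists carry no name in the tables, and the counts cover only those that do.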

How the data were processed

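Raw counts per feature, with the authors' normalized signal, were deposited in 1 table per RNA fraction. By its values, this signal is the raw count over a library size factor, with a second version per kb of length, per the file headers. The authors also deposited log2 fold changes and p-values, per the file headers, used here only to describe which features the newly synthesized RNA table holds: it is partial, its last line broken off. Per the labels' protocols, libraries were stranded and Schizosaccharomyces pombe cells were mixed in. For the aligner, the counter, their use of strand and the origin of the size factors, the entry is: not given in the sources used here. Reads were demultiplexed with bcl2fastq 2.17.1.14, per the submitters' processing notes. Size factors were 1.05 and 1.19 (auxin) and 1.09 and 0.728 (DMSO) in total RNA, and 1.59 and 1.56 (auxin) and 0.613 and 0.657 (DMSO) in newly synthesized RNA.

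Counts were fitted per fraction with edgeR 4.0.16 in R 4.3.3 (quasi-likelihood, treatment as the only term, the authors' size factors, mean of at least 10 counts), tested on simulated data. The series calls the 2 libraries of a group biological replicates. Alternatives were TMM scaling, DESeq2 1.42.0, a count limit of 50, other silent and neighbour limits, a replicate block and leaving out each library. The members and lists were chosen with earlier results of these data known. Named are the members called higher with their neighbours (1 downstream neighbour is not reported here), the 6 lowest per fraction among those whose groups do not overlap and whose mean reaches 10 CPM, the 5 highest in DMSO and the extremes of each list; others were chosen after their values were seen. Genes without a name in the tables keep their systematic identifier. A planned search of promoters was not made, as no genome of this species was used.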

Additional observations from a re-analysis of the deposited data

How the results depend on the processing

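Scaling decided the counts. TMM gave 40 sporulation genes higher, 47 lower and a median log2 fold change of -0.11 in total RNA, beside 29.6% higher and 32.3% lower among all tested features. It called 16 of the 41 tested silent sporulation genes higher, and 108 of the 788 tested silent protein-coding features. In newly synthesized RNA it gave 12 of the 57 sporulation genes higher and 16 lower, with a median of -0.033. All listed features gave 21.2% higher and 25% lower there. DESeq2 with its own size factors gave 35 higher, 27 lower, a median of -0.033 and 10 silent genes higher in total RNA. In newly synthesized RNA it gave 13 lower and a median of -0.023. Under TMM and DESeq2's own factors, BMH1 turned to 0.24 and 0.32, HHT1 to 0.31 and 0.38, CPR1 to 1.26 and 1.34, and YBR009C to -0.026 and 0.048. These factors take the typical feature as unchanged, by construction.

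With a mean of at least 50 counts, 2 genes were higher (1 silent) and the median was -1.97, as fewer genes were tested, and with silence set at the lowest 10% 1 silent gene was higher. The neighbour rule took 14 genes within 1000 bases, 34 at the same level or more, and 15 with the level set in DMSO. Without 1 library at a time, 3 to 4 genes were higher, 112 to 120 lower, 2 to 3 silent genes higher and the median -1.91 to -1.77; in newly synthesized RNA 57 were lower and the median was -2.95 to -2.65. YOR242C (3.34 to 5.30) and SPO21 (2.09 to 4.20) were called in 11 of 11 alternatives, YDR218C (1.71 to 3.93) in 10 of 10, and DIT2 (1.36 to 3.41) in 8 of 10. CPR1 was not called without auxin replicate 1 (-0.34), DMSO replicate 1 (-0.59) or DMSO replicate 2 (-0.40), or with the crossed pairing described next (-0.50, adjusted p 0.128 by edgeR).

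The replicate block gave 4 higher, 119 lower and a median of -1.87 in total RNA, and 57 lower with -2.83 in newly synthesized RNA. Same-numbered libraries had deviations correlated across features at -0.12 and 0.05 (total, newly synthesized RNA). This correlation leaves out a shift common to all features of a library, so it does not settle whether same-numbered libraries were paired. The crossed pairing, added after the data were seen, gave 4 higher and 116 lower. For UBX6 in total RNA, the SE was 0.20 without a block, 0.10 with the replicate block and 0.29 with the crossed pairing. At 2 libraries a group and single-digit counts in DMSO, the folds of YDR218C and DIT2 are imprecise.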
